A study of Wolfiporia cocos with 12 samples.

Results

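This set holds the gene models of the brown-rot fungus Wolfiporia cocos whose InterPro label names an oxidase family that can make hydrogen peroxide or a reductase family that acts on quinones or aldehydes. A model is a member where the deposited label holds 1 of a fixed list of family names, a rule that uses no measured value, and 99 of 12746 models matched. The list of families itself was drawn up with earlier results of these data known. They comprised 16 glucose-methanol-choline (GMC) oxidoreductases, 4 models of the glyoxal and galactose oxidase labels, 17 FAD linked oxidases, 57 aldo/keto reductases and 5 models of flavodoxin and FMN reductase labels. A label gives a family or fold and does not settle what a member acts on. The models carry numbers as names, which are used here as deposited.

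Brown rot fungi open wood with small, diffusible oxidants. In the Fenton reaction, ferrous iron and hydrogen peroxide give hydroxyl radicals, so the decay needs a source of peroxide and a reductant that returns ferric iron to the ferrous state. Among the peroxide sources known from wood-rotting fungi are GMC oxidoreductases, flavoproteins that include alcohol, aryl-alcohol and sugar oxidases, and glyoxal oxidases, copper radical enzymes that oxidise small aldehydes. FAD linked oxidases bind the flavin in a domain shared with berberine-bridge-type enzymes and oxidise sugars, alcohols or other small molecules. Hydroquinones made by brown rot fungi reduce iron and become quinones, and quinone reductases of the flavodoxin fold convert quinones back to hydroquinones. Aldo/keto reductases use NADPH to reduce aldehydes and ketones to alcohols, among them sugars, sugar derivatives and aromatic aldehydes.

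Strain MD-104 was cultured for 5 days with shaking in 250 ml of liquid medium, in triplicate per carbon source, and all 12 cultures gave a library of poly-A RNA read as single 100-nt reads. Wood was the sole carbon source in basal salts, as lodgepole pine (Pinus contorta) or aspen (Populus grandidentata) milled to pass a 1 mm mesh and added at 0.5% w/v. The other cultures had a defined medium with Avicel, a microcrystalline cellulose, or with glucose. All cultures held the same strain. The media differ in more than the polymer offered, since wood also brings lignin, extractives and minerals and was given in basal salts. The column headers place the pine and aspen libraries on 1 sequencing lane and the Avicel and glucose libraries on another, so a difference of wood from the defined media cannot be told apart from one of lane. Pine against aspen and Avicel against glucose lie within a lane.

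Transcript levels are RPKM, read counts scaled to model length and to library size, a unit inferred from the values because no header names it. Depth, recovered from the spacing of low values, was about 15350000 to 23360000 reads per library, so that 3 reads in a model of 1 kb equal 0.128 to 0.196 RPKM. Libraries of a medium correlated at r = 0.976 to 0.991 across models on the log2 scale, where models are not independent replicates. A model was tested where its mean reached 1 RPKM in at least 1 medium, which 89 members and 10184 models in all did. Of the 10 members left out, 19662, 152954 and 59973 were listed at 0 in every library, and the others stayed below 1 RPKM on average in every medium. A member is called higher or lower here at a Benjamini-Hochberg adjusted p under 0.05 over all tested models in limma together with a fold of at least 2, both on the log2(RPKM + 1) scale, which understates changes of low genes. RPKM is relative to all reads of a culture, and fewer hyphae that use a gene cannot be told apart from less of its RNA per hypha.

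Pine replicate 3 stood apart for these genes. It was the library with the highest value for 16 of 89 members (18.0%), against 6.47% of all tested models. Glucose replicate 1 held the highest value for 18 (20.2%), against 19.8% of models. The 3 pine cultures differed at least 5-fold in 10 of 89 members, against 3.29% of all tested models. The same spread was seen for 3 members in aspen, 2 in Avicel and 0 in glucose, against 1.76%, 2.39% and 0.992% of models. Results that rest on this library are given with and without it.

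Members of 4 of the 5 label groups were called on wood, and 36 of 89 members (40.4%) differed among the 4 media (limma F test, adjusted p below 0.05), against 29.3% of all tested models. In pine against glucose, 16 members were higher and 8 lower, which is 27.0% of those tested against 11.8% of all tested models (5.61% higher and 6.2% lower). Without pine replicate 3 these counts were 12 and 8. In aspen against glucose, 6 were higher and 14 lower (22.5%, against 11.8% of models, 5.24% higher and 6.56% lower). That split was 8 higher and 11 lower with median centring or quantile normalization of the libraries. In Avicel against glucose, 1 was higher and 5 were lower (6.74%, against 1.67% of models, 0.962% higher and 0.707% lower). As deposited, the median model stood at a log2 change of -0.14 in pine, -0.12 in aspen and -0.18 in Avicel against glucose, and small changes are read against that shift. The members' own medians were 0.06, -0.16 and -0.18.

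Pine and aspen cultures shared 5 of the calls above glucose, aldo/keto reductases 25098 and 140564, FAD linked oxidases 135969 and 139157, and flavodoxin-like 136700. They shared 8 calls below it, aldo/keto reductases 28055, 133019, 136039, 138136 and 140625, FAD linked oxidases 136371 and 140014, and GMC oxidoreductase 28904. Both comparisons use the same glucose cultures. Another 11 members were called higher on pine and not on aspen, 1 higher on aspen and not on pine, and 6 lower on aspen and not on pine. In 12 members all 6 wood libraries lay above all 6 others, against 7.97% of tested models, and in 6 members all lay below, against 7.1%. The heat map of the members called in any comparison shows these blocks.

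**Figure D1:**
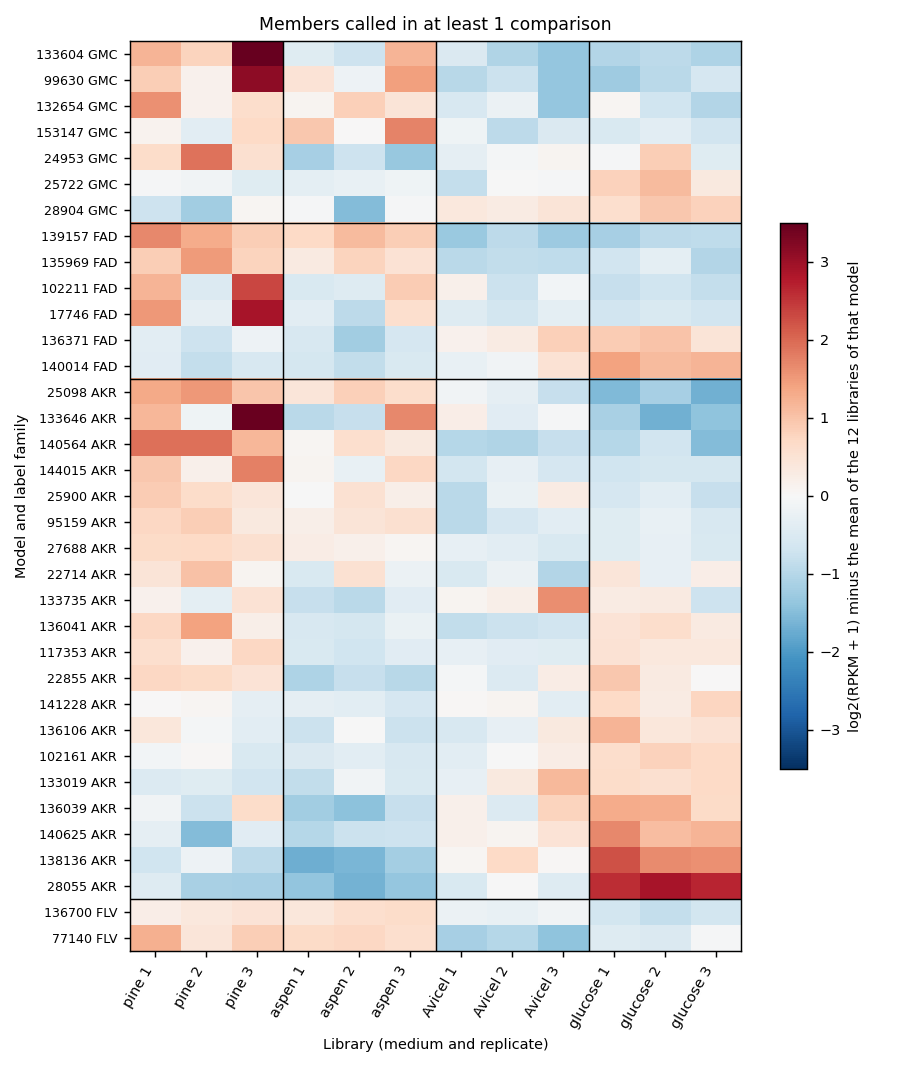
The 35 members called in at least 1 of the 6 comparisons (rows, with the label group after the number: GMC, glucose-methanol-choline; FAD, FAD linked oxidase; AKR, aldo/keto reductase; FLV, flavodoxin) in the 12 libraries (columns). Colour is log2(RPKM + 1) minus the mean of that model over the 12 libraries; pine replicate 3 holds the deepest red of 133604, 99630, 133646 and 17746, and the glucose libraries hold that of 28055.

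GMC oxidoreductases differed in direction from member to member. Of 13 tested, 3 were higher and 1 lower on pine, 1 higher and 3 lower on aspen, and 0 higher and 1 lower on Avicel, each against glucose, with 8, 7 and 3 members at an unadjusted p under 0.05. The shares of all tested models were 5.61% higher and 6.2% lower on pine, 5.24% and 6.56% on aspen, and 0.962% and 0.707% on Avicel. The aspen split of the 13 was 1 and 1 with median centring and 2 and 1 with quantile normalization. The most abundant over the 12 libraries, 28904, stood at 117, 82.1 and 203 RPKM in pine, 189, 66.3 and 189 in aspen, 248, 236 and 267 in Avicel and 291, 374 and 342 in glucose. All 6 wood values lay below all 6 others, and the change was -1.41 on the log2 scale on pine (SE 0.39, adjusted p = 0.0193) and -1.32 on aspen (adjusted p = 0.0264). The pine call was lost without pine replicate 1 or 2 or glucose replicate 2 or 3 (highest adjusted p = 0.0766), and the aspen call without aspen replicate 2 or any glucose replicate (highest adjusted p = 0.0809). Model 28614, which carries a predicted signal peptide for secretion (probability 1.0), was called in no comparison, at 99.6, 126 and 88.7 RPKM in pine, 98.5, 118 and 112 in aspen, 84.7, 113 and 78.9 in Avicel and 89.4, 94.4 and 111 in glucose. The ranges of its 4 media overlap.

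GMC model 24953 was the second most abundant and had its highest mean on pine, at 213, 513 and 202 RPKM in pine, 60.3, 81.7 and 54.4 in aspen, 110.0, 130.4 and 145 in Avicel and 134, 249 and 101 in glucose. Every aspen value lay below every value of the other media. Against glucose the change on aspen was -1.21 (SE 0.37, adjusted p = 0.0329), a call lost with either rescaling of the libraries and without aspen replicate 1 or 3 or glucose replicate 1 or 2 (highest adjusted p = 0.124). The log2 difference of pine from aspen was 2.11 (SE 0.37, adjusted p = 0.0519), which misses the threshold, and without pine replicate 3 the difference was 2.34 (adjusted p = 0.0445). Pine replicate 2 alone, at 513 RPKM, gave 56.4% of the summed RPKM of the family in its library.

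The members 133604 and 99630 were the GMC models with the largest rises on pine. Model 133604 had 6.16, 4.43 and 45.9 RPKM in pine, 1.34, 0.905 and 6.21 in aspen, 1.22, 0.509 and 0.227 in Avicel and 0.549, 0.672 and 0.481 in glucose, and pine replicate 3 was 10.4 times pine replicate 2. Its pine values all lay above the Avicel and glucose values (log2 change 2.96, SE 0.70, adjusted p = 0.00931 against glucose), and without pine replicate 3 the change was 1.99 (adjusted p = 0.0119). A cytochrome P450 model, 139569, starts 215 bases beyond it on scaffold 10 and was also called higher on pine against glucose and against Avicel. The other nearby models 139568, 78960 and 145492 were called in no comparison. Model 99630 had 28.8, 17.1 and 143 RPKM in pine, 21.6, 13.6 and 43.7 in aspen, 7.41, 8.66 and 5.37 in Avicel and 5.87, 7.44 and 9.83 in glucose. All 6 wood values lay above the others, the change on pine was 2.32 (SE 0.62, adjusted p = 0.018), and it was 1.44 (adjusted p = 0.0283) without pine replicate 3. That call was lost without glucose replicate 1 (adjusted p = 0.0615) and with pine and glucose alone in the fit.

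Among the less abundant GMC models, 132654 averaged 13.7 ± 7.78 RPKM on pine, 9.88 ± 2.73 on aspen, 3.99 ± 1.85 on Avicel and 4.58 ± 2.27 on glucose (SD, n = 3 each), and all its wood values lay above the others. Its change on pine was 1.34 (SE 0.41, adjusted p = 0.0304), lost without pine replicate 1, glucose replicate 2 or glucose replicate 3 (highest adjusted p = 0.109). That call was also lost with a pseudocount of 5 and with only pine and glucose in the fit. Model 153147 was the only member called higher on aspen and not on pine, with 2.65, 1.61 and 4.45 RPKM in pine, 5.47, 2.41 and 10.1 in aspen, 2.02, 0.760 and 1.35 in Avicel and 1.29, 1.58 and 1.10 in glucose. Its change on aspen was 1.43 (SE 0.39, adjusted p = 0.0184), and the call was lost without aspen replicate 1 or 3 or glucose replicate 1 or 3 (highest adjusted p = 0.0665). A pseudocount of 5 lost that call too. Pine and aspen values of this model overlap. Model 25722, picked out after its values were seen, averaged 11.1 ± 1.63, 10.6 ± 0.767 and 10.5 ± 3.26 RPKM on pine, aspen and Avicel and 22.6 ± 5.93 on glucose. It passed the fold of 2 on aspen (-1.0) and Avicel (-1.05) by a margin that both rescalings removed, as did the omission of aspen replicate 1 or 2 or glucose replicate 1 or 2 on aspen. Both calls were also lost with a pseudocount of 5.

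The 3 models labelled glyoxal oxidase and the 1 labelled galactose oxidase/kelch held no called member in any comparison by limma. Of these 4, 0 or 1 stood at an unadjusted p under 0.05 in each comparison, and 2 in aspen against Avicel. The most abundant, 83651, was nonetheless close to 2-fold higher on wood, at 211, 199 and 225 RPKM in pine, 211, 257 and 181 in aspen, 109.8, 109.8 and 114 in Avicel and 121, 92.0 and 121 in glucose. Its 6 wood values all lay above the 6 others. The change was 0.93 on pine (SE 0.15, adjusted p = 0.000955) and 0.94 on aspen (adjusted p = 0.000857), past the p threshold and short of the fold threshold, and with median centring both passed it (1.03 and 1.04). The difference of pine from aspen was -0.02 (SE 0.15) and was not called. Its signal peptide probability is 1.0, and it is 1 of the 11 members found as protein. It had 9 peptides in every medium, so that count shows no rise on wood.

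The galactose oxidase/kelch model 137227 averaged 33.6 ± 2.40 RPKM on pine, 36.7 ± 2.15 on aspen, 36.1 ± 5.66 on Avicel and 39.0 ± 1.21 on glucose (SD, n = 3 each). It shares 5429 bases with model 137228 on the opposite strand, and because the sources used here do not say whether reads were counted by strand, reads of this pair cannot be told apart. Glyoxal oxidase 80969 was low, at 1.38, 0.716 and 4.42 RPKM in pine, 1.18, 0.715 and 1.67 in aspen, 1.8, 1.27 and 2.5 in Avicel and 3.05, 2.07 and 1.75 in glucose, with its highest value in pine replicate 3. The last of the 4, 87683, averaged 0.992 RPKM on pine, 1.34 on aspen, 0.754 on Avicel and 1.41 on glucose.

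FAD linked oxidases were called higher on pine in 4 and lower in 2 of 16 tested, and higher in 2 and lower in 2 on aspen, against glucose. The shares of all tested models were 5.61% higher and 6.2% lower on pine, and 5.24% and 6.56% on aspen. Without pine replicate 3 the pine counts were 2 and 2. Member 139157, which carries a predicted signal peptide (probability 0.998), stood at 67.5, 51.6 and 37.9 RPKM in pine, 33.5, 45.4 and 37.6 in aspen, 7.68, 10.3 and 7.84 in Avicel and 8.52, 10.3 and 10.5 in glucose. Every wood value was over 3 times every other value, with a change of 2.28 on pine (SE 0.20, adjusted p = 1.15e-05) and 1.88 on aspen (SE 0.20, adjusted p = 5.34e-05). These calls held under all 21 alternatives tried. It lies on scaffold 9 at 400986 to 404332 (+ strand), in the neighbourhood of multicopper oxidase 123970 (394343 to 397155) and iron permease FTR1 139155 (391870 to 396926), 3831 and 4060 bases away. In yeast such an oxidase and permease work together to take up iron. Both neighbours were called higher on pine and aspen against glucose and against Avicel. By their coordinates they overlap each other on opposite strands. Use of strand is not known, so reads of the pair cannot be told apart and their calls may not be separate. The 3 nearer models 154740, 139159 and 139160 were called in no comparison.

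Member 135969 followed the same pattern at 72.7, 114 and 69.1 RPKM in pine, 49.9, 68.5 and 56.6 in aspen, 20.2, 21.5 and 21.2 in Avicel and 24.9, 31.0 and 19.1 in glucose. Its change was 1.72 on pine (SE 0.21, adjusted p = 0.000126) and 1.21 on aspen (SE 0.21, adjusted p = 0.0016), and both calls held under all alternatives. Neither wood range meets a range of the defined media. The most abundant FAD linked oxidase, 135185, averaged 99.9 ± 9.51 RPKM on pine, 92.8 ± 14.6 on aspen, 79.9 ± 5.30 on Avicel and 80.8 ± 6.35 on glucose and was not called. Member 155662 varied from 38.2 to 108 RPKM within Avicel and was not called either.

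Lower on wood were 136371 and 140014. The values of 136371 were 21.5, 16.7 and 24.7 RPKM in pine, 18.8, 11.5 and 18.5 in aspen, 31.5, 34.8 and 50.6 in Avicel and 52.7, 57.5 and 38.5 in glucose, with a change of -1.20 on pine (SE 0.24, adjusted p = 0.00373) and -1.56 on aspen (SE 0.24, adjusted p = 0.000681), both held under all alternatives. Member 140014 was highest on glucose, with 3.48, 2.35 and 3.02 RPKM in pine, 2.86, 2.25 and 3.14 in aspen, 4.01, 4.44 and 7.39 in Avicel and 14.7, 11.9 and 12.6 in glucose. Every glucose value lay above every other value, and the change was -1.84 on pine, -1.91 on aspen and -1.20 on Avicel (SE 0.21 each, adjusted p = 7.11e-05, 5.47e-05 and 0.0116). The Avicel call was lost without glucose replicate 1 (adjusted p = 0.0506) and with a pseudocount of 5.

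Aldo/keto reductases were the largest group, with 52 of 57 tested. On pine 7 were higher and 5 lower, on aspen 2 higher and 9 lower, and on Avicel 1 higher and 3 lower, each against glucose. Of all tested models, 5.61% were higher and 6.2% lower on pine, 5.24% and 6.56% on aspen, and 0.962% and 0.707% on Avicel. Without pine replicate 3 the pine counts were 6 and 5. The summed RPKM of all 57 was 2683 to 3274 in pine, 1788 to 2054 in aspen, 2051 to 2351 in Avicel and 2333 to 3153 in glucose libraries. The 3 most abundant members of each library made up 40.9% to 48.1% of its sum. Over the 12 libraries the leading members were 22354, 141302 and 25098. The first averaged 481 ± 146 RPKM on pine, 349 ± 15 on aspen, 437 ± 158 on Avicel and 445 ± 81.5 on glucose, and its ranges overlap. Member 141302 averaged 356 ± 98.9, 199 ± 16.2, 369 ± 134 and 348 ± 113 RPKM on pine, aspen, Avicel and glucose and was called in no comparison.

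The largest fall in the set was that of aldo/keto reductase 28055, at 48.3, 29.4 and 29.0 RPKM in pine, 24.9, 20.4 and 25.5 in aspen, 45.5, 65.4 and 48.6 in Avicel and 404, 496 and 426 in glucose. Every glucose value was over 6 times every other value. The log2 change was -3.63 on pine (adjusted p = 4.87e-07), -4.17 on aspen (adjusted p = 1.92e-07) and -3.04 on Avicel (SE 0.20 each, adjusted p = 5.97e-05), and all 3 calls held under every alternative. Model 138136 followed, at 30.4, 44.0 and 25.9 RPKM in pine, 14.6, 16.0 and 21.2 in aspen, 53.0, 81.2 and 51.1 in Avicel and 237, 161 and 154 in glucose. Its change was -2.43 on pine, -3.33 on aspen and -1.57 on Avicel (SE 0.25 each, adjusted p = 3.55e-05, 4.56e-06 and 0.00788), held under every alternative. Neither wood range of 138136 reaches the Avicel range, and pine and aspen do not overlap.

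Model 140625 fell by 2.06 on the log2 scale on pine and by 2.14 on aspen (SE 0.29 each, adjusted p = 0.000318 and 0.000248). It averaged 7.25 ± 3.24 RPKM on pine, 6.32 ± 0.781 on aspen, 14.5 ± 2.18 on Avicel and 31.8 ± 7.84 on glucose (SD, n = 3 each), with all wood values below the others. Model 136039 averaged 34.6 ± 16.9, 14.9 ± 3.59 and 40.3 ± 17.3 RPKM on pine, aspen and Avicel, against 74.1 ± 17.4 on glucose. The aspen fall of 136039 (-2.23, SE 0.37, adjusted p = 0.00105) held under every alternative. The pine fall (-1.16, adjusted p = 0.0363) was lost without pine replicate 1 or 2 or glucose replicate 1 or 2 (highest adjusted p = 0.139). Median centring and a fit of pine and glucose alone also lost the pine call. Model 133019 was 1.15 lower on pine and 1.14 lower on aspen on the log2 scale, at 7.38 ± 0.741 and 7.61 ± 2.23 RPKM against 17.6 ± 0.977 on glucose, and the aspen call was lost without aspen replicate 1 (adjusted p = 0.06). Both calls were lost with a pseudocount of 5.

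Lower on aspen and not called on pine were 22855, 102161, 136106 and, picked out after its values were seen, 141228. Model 102161 averaged 1.36 ± 0.461 RPKM on pine, 0.913 ± 0.126 on aspen, 1.63 ± 0.570 on Avicel and 3.34 ± 0.323 on glucose, a change on aspen of -1.18 (SE 0.20, adjusted p = 0.00116). Its pine change of -0.90 had an adjusted p of 0.0065 and missed the fold threshold. The aspen call of 102161 was lost with a pseudocount of 5 (smallest size of the log2 change 0.5 over the alternatives). Model 136106 averaged 28.9 ± 8.13, 20.5 ± 6.91, 26.4 ± 9.30 and 48.2 ± 15.4 RPKM on pine, aspen, Avicel and glucose. Its aspen call (-1.20, adjusted p = 0.0141) was lost without aspen replicate 1 or 3 or glucose replicate 1 (highest adjusted p = 0.0611). The aspen change of 141228 was -1.0 (adjusted p = 0.00253), and both rescalings and the omission of aspen replicate 3, glucose replicate 1 or glucose replicate 3 took it under the fold threshold. The call of 141228 was also lost with a pseudocount of 5.

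The largest rises among aldo/keto reductases called on both woods were those of 25098 and 140564. Model 25098 stood at 459, 523 and 359 RPKM in pine, 246, 328 and 282 in aspen, 170.1, 147 and 105 in Avicel and 62.0, 80.8 and 56.1 in glucose. The 4 media formed separate ranges in the order pine, aspen, Avicel, glucose, and it was the 1 member called higher on all 3 polymeric carbon sources. The change was 2.73 on pine (adjusted p = 3.98e-06), 2.10 on aspen (adjusted p = 3.33e-05) and 1.06 on Avicel (adjusted p = 0.0206), each with an SE of 0.21. The wood calls held under every alternative, and the Avicel call was lost without Avicel replicate 1, glucose replicate 1 or glucose replicate 3 (highest adjusted p = 0.0813). Model 140564 stood at 128, 128 and 74.2 RPKM in pine, 34.2, 49.9 and 41.5 in aspen, 16.0, 15.2 and 18.1 in Avicel and 15.9, 20.3 and 10.8 in glucose. Its Avicel and glucose ranges overlap, its aspen values lie above them, and its pine values above those of aspen. The change was 2.73 on pine and 1.39 on aspen (SE 0.25 each, adjusted p = 1.45e-05 and 0.00191), held under every alternative.

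Of the aldo/keto reductases called higher on pine and not on aspen, 25900, 144015 and 27688 kept the call under every alternative. Model 27688, picked out after its values were seen, stood at 169, 171 and 156 RPKM in pine, 126, 119 and 111 in aspen, 86.0, 80.4 and 71.8 in Avicel and 78.3, 85.1 and 72.4 in glucose. Its change was 1.06 on pine (SE 0.11, adjusted p = 4.79e-05) and 0.59 on aspen (adjusted p = 0.00296), the second past the p threshold and under the fold threshold. Model 25900 averaged 137 ± 21.1 RPKM on pine, 103 ± 19.8 on aspen, 73.8 ± 30.1 on Avicel and 57.2 ± 9.29 on glucose, with 1.25 on pine (SE 0.27, adjusted p = 0.00558). Model 144015 averaged 43.1 ± 23.6, 23.3 ± 8.59, 13.5 ± 1.86 and 12.1 ± 0.503 RPKM on pine, aspen, Avicel and glucose, with 1.60 on pine (adjusted p = 0.00509) and 1.2 (adjusted p = 0.0114) without pine replicate 3. Model 95159 averaged 23.2 ± 4.24, 19.5 ± 2.59, 9.05 ± 1.98 and 10.5 ± 1.22 RPKM in the same order, with all wood values above the others. Its pine change of 1.06 (adjusted p = 0.00157) passed the fold threshold narrowly. With a pseudocount of 5, or without pine replicate 2 or glucose replicate 3, it did not (smallest log2 change 0.85 over the alternatives).

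In Avicel against glucose, 2 further members were called lower, aldo/keto reductase 136041 and GMC oxidoreductase 25722. The Avicel mean of 25722 was close to its pine and aspen means, and glucose was the medium that stood apart. Model 136041 stood at 56.0, 91.2 and 38.7 RPKM in pine, 22.4, 21.5 and 28.4 in aspen, 18.0, 19.4 and 20.6 in Avicel and 47.0, 52.4 and 41.8 in glucose. Its Avicel values lay below those of every other medium, and the change on Avicel was -1.24 (SE 0.24, adjusted p = 0.0206). The call was lost with median centring and without Avicel replicate 1 or 3 or any glucose replicate (highest adjusted p = 0.0963). That of 25722 was lost under 12 of the 21 alternatives, among them the omission of Avicel replicate 1 or 3, glucose replicate 1 or 2, pine replicate 1 or any aspen replicate (highest adjusted p = 0.146). Pine and Avicel differed for 136041 by 1.55 on the log2 scale (adjusted p = 0.00135), which held under every alternative. No Avicel rise other than that of 25098 was called.

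The flavodoxin-type members bind FMN in a fold that also occurs in quinone reductases and in the reductase partner of cytochromes P450. Of 4 tested, 2 were called higher on pine and 1 on aspen against glucose, where 5.61% and 5.24% of all tested models were called higher. Flavodoxin-like 136700 was the most abundant, at 319.6, 348 and 378 RPKM in pine, 356, 409 and 427 in aspen, 234, 225 and 251 in Avicel and 175, 152 and 175 in glucose. The Avicel range lies between the glucose range and the wood ranges, and the change was 1.05 on pine and 1.24 on aspen (SE 0.12 each, adjusted p = 0.000104 and 3.33e-05). The pine call passed the fold threshold narrowly and was lost without pine replicate 3 or glucose replicate 2 (lowest log2 change 0.99). This model shares 744 bases with 136699 on the opposite strand, which was called in no comparison.

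Flavodoxin-like 77140 was lowest on Avicel, at 82.3, 45.9 and 62.9 RPKM in pine, 54.9, 56.9 and 51.5 in aspen, 14.6, 16.6 and 12 in Avicel and 24.7, 23.6 and 32.6 in glucose. All Avicel values lay below all glucose values, and all wood values above both. Against Avicel the change was 2.04 on pine and 1.86 on aspen (SE 0.20 each, adjusted p = 5.92e-05 and 0.000202), held under every alternative. Against glucose it was 1.18 on pine (adjusted p = 0.00131), lost without pine replicate 1. On aspen it was 1.00 after rounding (adjusted p = 0.00384), just under the fold threshold, and was not called. Member 27193, labelled flavodoxin/nitric oxide synthase, averaged 171 ± 33.1 RPKM on pine, 177 ± 92.2 on aspen, 202 ± 59.6 on Avicel and 171 ± 45.2 on glucose, with ranges that overlap. Member 102725 averaged 9.51 RPKM on pine, 10.8 on aspen, 9.53 on Avicel and 10.7 on glucose. The model labelled NADPH-dependent FMN reductase, 59973, is a span of 234 bases listed at 0 throughout.

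**Figure D2:**
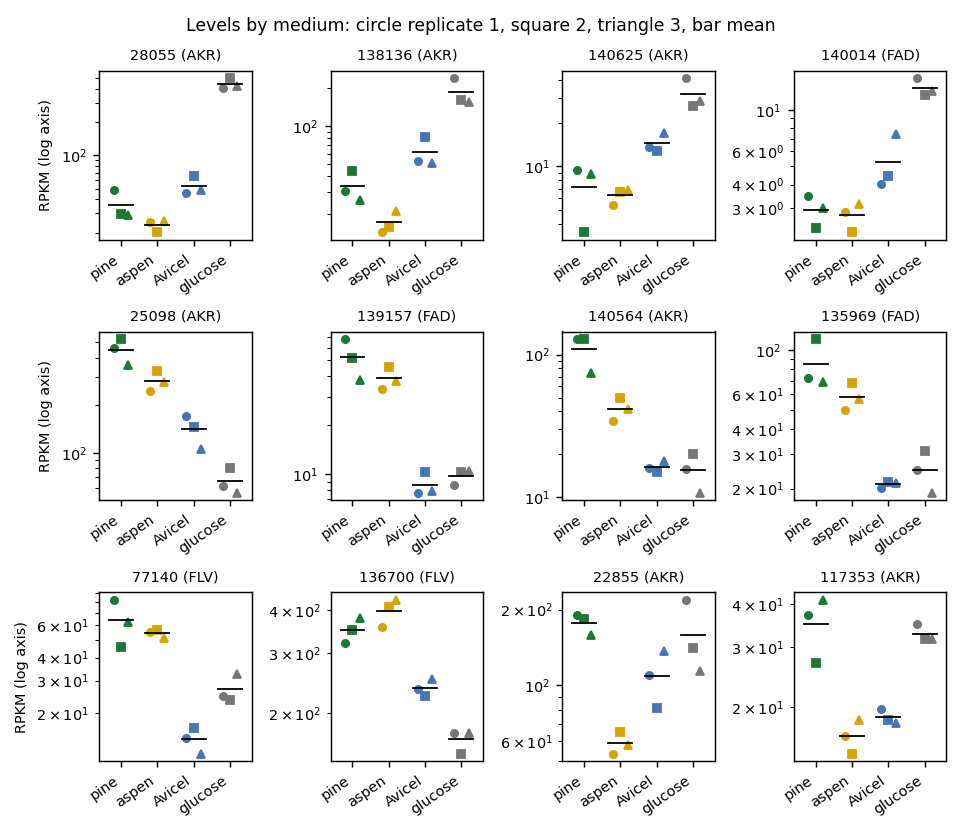
RPKM (log axis) of 12 members in the 3 cultures of each medium, pine, aspen, Avicel and glucose from left to right; circles, squares and triangles are replicates 1, 2 and 3 and bars are means. The top row shows members called lower on both woods, the middle row members called higher on both, and the bottom row 77140, lowest on Avicel, 136700, and 22855 and 117353, which stand lower on aspen than on pine.

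The members with widely spread pine cultures shared an order of replicates. In all 10 members with a spread of at least 5-fold among pine cultures, pine replicate 3 was the highest and pine replicate 2 the lowest, and aspen replicate 3 was the highest of the aspen cultures. They were aldo/keto reductases 114165, 133646 and 148740, FAD linked oxidases 17746, 71718, 102211 and 166265, glyoxal oxidase 80969 and GMC oxidoreductases 99630 and 133604, picked by this spread after the values were seen. Among all tested models, 335 had this spread on pine. The share of those with the same order of replicates was not computed, so the order may not be particular to these members. Aldo/keto reductase 133646 had 9.15, 3.10 and 49.1 RPKM in pine, 1.36, 1.59 and 13.6 in aspen, 4.34, 2.46 and 3.42 in Avicel and 1.05, 0.427 and 0.703 in glucose. Its change on pine was 2.90 (SE 0.82, adjusted p = 0.022), and it was 1.92 (adjusted p = 0.0621) without pine replicate 3. That call was also lost without glucose replicate 2 or 3 (highest adjusted p = 0.0624). FAD linked oxidase 17746 had 34.9, 8.96 and 91.4 RPKM in pine, 8.60, 5.58 and 17.7 in aspen, 8.11, 6.95 and 8.85 in Avicel and 6.79, 7.56 and 6.82 in glucose. It changed by 2.00 on pine (adjusted p = 0.0326) and by 1.23 (adjusted p = 0.0945) without pine replicate 3. The call was also lost without pine replicate 1 or any glucose replicate, and with only pine and glucose in the fit.

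FAD linked oxidase 102211 had 5.34, 1.00 and 13.1 RPKM in pine, 0.919, 1.03 and 4.07 in aspen, 2.12, 0.645 and 1.61 in Avicel and 0.587, 0.700 and 0.553 in glucose. Its pine change of 1.8 (adjusted p = 0.0399) was 1.14 (adjusted p = 0.13) without pine replicate 3, and was lost without pine replicate 1, Avicel replicate 3 or any glucose replicate as well. Further losses of this call came with a pseudocount of 5, with no filter on low values and with only pine and glucose in the fit. The values of 166265, which has a signal peptide probability of 0.999, were 6.68, 5.69 and 31.6 RPKM in pine, 5.86, 4.16 and 15 in aspen, 5.02, 5.22 and 2.90 in Avicel and 7.38, 7.68 and 6.83 in glucose. Its change on pine of 0.52 (adjusted p = 0.507) turned to -0.21 without pine replicate 3. Models 71718, 17746, 144072 and 102211 all lie on scaffold 5 between 2519068 and 2597062. Of these, 144072 had its highest mean on Avicel, at 7.90 ± 3.20 RPKM, against 2.47 ± 0.938 on glucose, a change of 1.33 that was not called (adjusted p = 0.0846). What set the third pine culture apart was not tested.

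**Figure D3:**
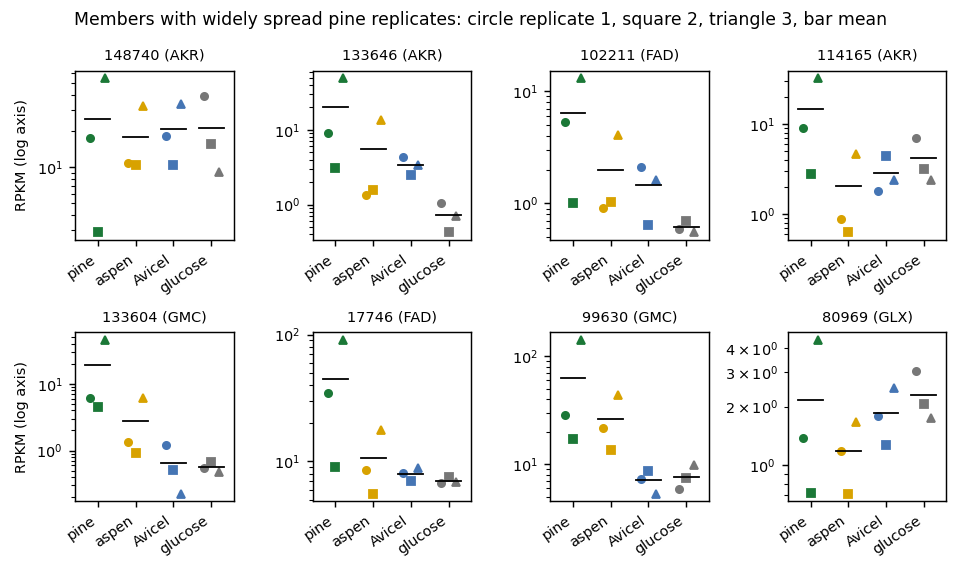
RPKM (log axis) of 8 members whose pine cultures differ widely, in pine, aspen, Avicel and glucose from left to right; circles, squares and triangles are replicates 1, 2 and 3 and bars are means. The triangle of pine is the highest point in every panel, and the triangle of aspen is the highest of the aspen points.

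Pine against aspen asks which genes tell the 2 woods apart, and 2 of 89 members were called, both aldo/keto reductases and both higher on pine (2.25%, against 0.157% of all tested models, 0.137% higher and 0.0196% lower), with 20 members at an unadjusted p under 0.05. Model 22855 had 189.7, 184 and 159 RPKM in pine, 53.6, 65.4 and 57.9 in aspen, 109.8, 81.1 and 138 in Avicel and 218, 141 and 114 in glucose. Aspen values lay below all others, and pine and glucose overlapped. The log2 difference of pine from aspen was 1.57 (SE 0.23, adjusted p = 0.0209), and the call was lost without any aspen replicate, pine replicate 1 or pine replicate 2 (highest adjusted p = 0.103). The fall on aspen against glucose (-1.36, adjusted p = 0.00142) held under every alternative. Model 117353, picked out after its values were seen, had 37.2, 27.0 and 41.1 RPKM in pine, 16.5, 14.7 and 18.3 in aspen, 19.7, 18.3 and 18.0 in Avicel and 34.9, 31.6 and 31.6 in glucose. Its difference was 1.03 (SE 0.15, adjusted p = 0.0209), lost without any aspen replicate, pine replicate 1 or pine replicate 3 (highest adjusted p on leaving out a library 0.103). The call also failed with a pseudocount of 5 and with only pine and aspen in the fit (adjusted p = 0.13 in limma for the latter).

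Without pine replicate 3, 4 members were called higher on pine than on aspen: 22855, 24953, 136041 and 140564. With all cultures, 140564 exceeded aspen by 1.35 (SE 0.25, adjusted p = 0.0611) and 136041 by 1.25 (SE 0.24, adjusted p = 0.081). Over the 52 tested aldo/keto reductases the median log2 difference of pine from aspen was 0.32, and 45 of them were positive, against a median of -0.01 and 4828 positive of 10184 models. Without pine replicate 3 the median was 0.32 and 44 were positive. FAD linked oxidases had a median of 0.38, or 0.21 without that library, and GMC oxidoreductases of 0.06, with 6 of 13 positive without that library. Whether these medians differ from those of other genes was not tested.

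Wood against Avicel sets a complex substrate against purified cellulose, and here too the lane goes with the difference. Pine against Avicel gave 13 members higher and 0 lower (14.6%, against 9.02% of all tested models, 4.56% higher and 4.47% lower), with 37 at an unadjusted p under 0.05 in limma. With no fold threshold 20 were higher and 4 lower, and without pine replicate 3, 15 and 2. Aspen against Avicel gave 7 higher and 6 lower (14.6%, against 7.23% of models, 3.51% higher and 3.72% lower). Both use the same Avicel cultures. Members 139157, 135969, 140564, 25098, 77140 and 95159 were called higher in both, for example 139157 by 2.45 on pine (SE 0.20, adjusted p = 1.85e-05) and 2.05 on aspen (adjusted p = 0.000107). The aspen call of 25098 (1.03) was lost with median centring and without Avicel replicate 3 or aspen replicate 2 (smallest log2 change 0.84). That of 95159 (1.04) was lost with both rescalings, with a pseudocount of 5 and without Avicel replicate 1 or aspen replicate 3 (smallest log2 change 0.8). GMC oxidoreductase 153147 was the remaining call above Avicel on aspen (1.43), lost without Avicel replicate 2 or 3 or aspen replicate 1 or 3 (highest adjusted p = 0.0986). This call also failed with a pseudocount of 5 and with only aspen and Avicel in the fit. On pine the other calls above Avicel included GMC oxidoreductases 133604 (2.93), kept under every alternative, 99630 (2.41), lost without Avicel replicate 3 (adjusted p = 0.0665), and 132654 (1.5), lost without pine replicate 1 or Avicel replicate 3 (highest adjusted p = 0.0924). With only pine and Avicel in the fit the calls of 99630 and 132654 were lost as well, and that of 132654 also with a pseudocount of 5. Aldo/keto reductases 144015 (1.46) and 136041 kept theirs, and that of 27688 (1.05) was lost with median centring and without Avicel replicate 3.

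Lower on aspen than on Avicel were 28055, 133735, 136039, 136371, 138136 and 140625. Model 138136 had the largest difference, -1.77 (SE 0.25, adjusted p = 0.000911), held under every alternative. The difference of 28055 was -1.13 (adjusted p = 0.00356) and missed the fold threshold without Avicel replicate 2 (-0.97). That of 136371 (-1.21) was lost without aspen replicate 2. The call of 136039 (-1.31) was lost without aspen replicate 1 or 2 or either of Avicel replicates 1 and 3 (highest adjusted p = 0.124). That of 140625 (-1.08) was lost with a pseudocount of 5 and without Avicel replicate 3 or any aspen replicate (highest adjusted p = 0.0909). Model 133735 was called in this comparison and no other, at 10.6, 7.26 and 13.8 RPKM in pine, 4.92, 4.46 and 6.97 in aspen, 10.3, 11.1 and 31.4 in Avicel and 11.7, 12 and 5.33 in glucose, where Avicel replicate 3 is the highest. Its difference of -1.36 (adjusted p = 0.0403) was lost without that library (adjusted p = 0.132) and under 8 other alternatives, among them the omission of pine replicate 1, glucose replicate 2 or any aspen replicate. Pine against Avicel added 22714, named after its values were seen, at 13.9 ± 5.00 RPKM on pine and 5.81 ± 1.89 on Avicel (1.12, adjusted p = 0.0328), a call lost without Avicel replicate 1 or 3 and without pine replicate 1 or 2 (highest adjusted p = 0.121). That call was also lost with a pseudocount of 5 and with only pine and Avicel in the fit.

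Some members lie near others in the genome. Of the 99, 42 fell into 14 groups in which each lies within 50 kb of the next on its scaffold, a distance that can hold several other models. The share of other models with such neighbours was not computed. Aldo/keto reductases 22855, 114165, 148740 and 148741 stand in a row on the + strand of scaffold 2, from 558817 to 566244. The first averaged 177 ± 16.6 RPKM on pine, 59.0 ± 5.97 on aspen, 109 ± 28.2 on Avicel and 158 ± 54.1 on glucose. Its neighbour 114165 averaged 14.7 ± 15.6, 2.06 ± 2.26, 2.87 ± 1.36 and 4.19 ± 2.44 RPKM in the same order, with 32.4 in pine replicate 3, and its pine-aspen difference of 2.06 was not called (adjusted p = 0.483). The third, 148740, averaged 25.0 ± 26.7, 17.7 ± 12.4, 20.8 ± 11.8 and 21.1 ± 15.6 RPKM and was not called. The fourth, 148741, stayed between 0 and 1.16 RPKM and was not tested. How alike these copies are in sequence could not be checked, so reads may be split among them.

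**Figure D4:**
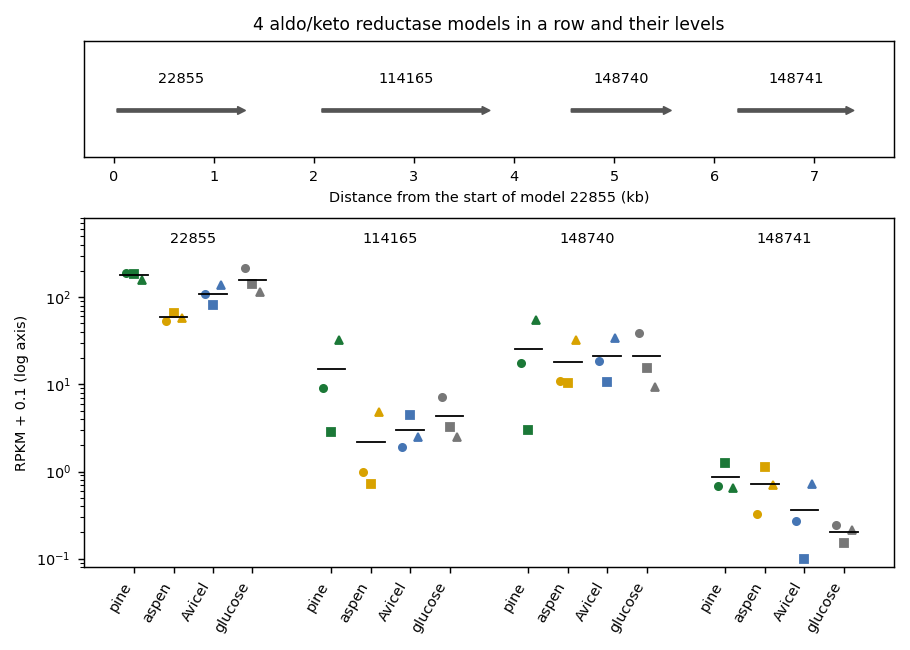
Top, the 4 aldo/keto reductase models in a row on scaffold 2, as arrows along the + strand, by distance in kb from the start of 22855. Bottom, RPKM + 0.1 (log axis) of each in pine, aspen, Avicel and glucose; circles, squares and triangles are replicates 1, 2 and 3 and bars are means. Only 22855 has aspen points that lie clear below all others.

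Members 28055 (1161145 to 1162966, + strand) and 140014 (1152119 to 1156375, - strand) of scaffold 12 are 4770 bases apart with no other model between them. Both were lower than on glucose in all 3 other media, as described above. Aldo/keto reductases 136039 and 136041 lie next to each other among the members of scaffold 2 (1441644 to 1443559 and 1446842 to 1448722), and on pine the first was -1.16 and the second, which was not called, 0.31 against glucose on the log2 scale. On scaffold 6, GMC models 18149, 25722, 132654 and 121505 lie between 1692487 and 1735591. There 132654 was higher on pine, 25722 lower on aspen and Avicel, 121505 called in no comparison and 18149 not tested. On scaffold 24, aldo/keto reductases 141217, 141220, 167925, 141228 and 29524 lie between 347716 and 456032, and 1 of the 5, 141228, was called. Models 25314 and 25315 share the same span on scaffold 5, so the reads given to either are uncertain, and 152954 lies inside 25604.

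Mass spectrometry found 11 of the members among 704 proteins of the deposited table. Values are 1 per medium, with no replicate and no test. Peptides of 7 members were seen in pine, 10 in aspen, 4 in Avicel and 7 in glucose cultures, against 513, 580, 252 and 436 proteins in all. Aldo/keto reductase 25098 had 7 peptides in pine, 6 in aspen, 0 in Avicel and 0 in glucose, and FAD linked oxidase 139157 had 3, 3, 0 and 0. Both were also among the transcripts called higher on both woods. Aldo/keto reductase 22354 had 11, 10, 7 and 5 peptides in the same order of media while its transcript was called in no comparison. Its emPAI score, which within a medium grows with the number of peptides observed, was 2.47 in pine, 1.92 in aspen, 1.36 in Avicel and 0.728 in glucose. As described below, scores are relative within a medium, so these values do not compare amounts between media.

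Glyoxal oxidase 83651 had 9 peptides and GMC oxidoreductase 28614 had 4 in every medium. Their emPAI scores nevertheless differed, at 1.29 in pine, 0.991 in aspen, 2.96 in Avicel and 1.41 in glucose for 83651. The score columns of the 4 media have the same sum, so the scores are relative within a medium. Flavodoxin 27193 had 5, 8, 7 and 6 peptides in pine, aspen, Avicel and glucose. Aldo/keto reductase 141302 had 6, 6, 0 and 8, and 148943 had 0, 0, 0 and 3 in the same order. GMC oxidoreductase 24953 had 2 peptides each in aspen and glucose and 0 in pine, where its transcript had the highest mean. Aldo/keto reductase 22855 and flavodoxin-like 136700 had 2 each in aspen alone. On aspen the transcript of 22855 had its lowest mean of the media, and that of 136700 its highest.

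**Figure D5:**
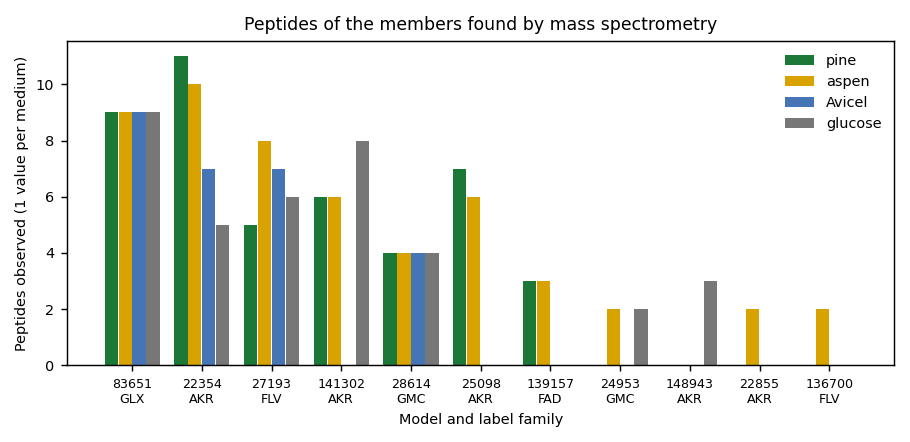
Number of peptides observed by mass spectrometry for the 11 members in the protein table, as 1 value per medium with no replicate; bars are pine, aspen, Avicel and glucose from left to right, and a missing bar is 0. Models 83651 and 28614 have equal bars in all media, and 25098 and 139157 have bars in pine and aspen alone.

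Other enzymes of peroxide, iron and aldehyde chemistry were taken by label, 117 models with 111 tested, among them catalases, peroxidases, superoxide dismutases, ferric reductases, multicopper oxidases and alcohol and aldehyde dehydrogenases. On pine 15 were higher and 12 lower against glucose (24.3%, against 11.8% of models). On aspen these counts were 14 and 9 (20.7%, against 11.8%) and on Avicel 2 and 1 (2.7%, against 1.67%). Pine against aspen gave 0 calls in limma, with 23 at an unadjusted p under 0.05. Of 4 catalases, which break down hydrogen peroxide, 2 were called lower on pine and 1 on aspen. Catalase 84844 had 779, 808 and 855 RPKM in pine, 328, 321 and 334 in aspen, 629, 1477 and 2231 in Avicel, and 3143, 4069 and 2096 in glucose. It changed by -1.88 on pine and -3.19 on aspen on the log2 scale (SE 0.38 each, adjusted p = 0.00386 and 0.000106).

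Multicopper oxidases, which include laccases and ferroxidases, were higher in 3 of 5 on each wood against glucose, among them 157228 at 104 ± 94.7 RPKM on pine, 46.8 ± 30.5 on aspen, 1.92 ± 0.471 on Avicel and 2.18 ± 0.165 on glucose (SD, n = 3 each). Pine replicate 3 held its highest value here too, at 212 RPKM. Ferric reductases, which supply ferrous iron, were higher in 2 of 5 on each wood. The shares of all tested models were 5.61% higher and 6.2% lower on pine, and 5.24% and 6.56% on aspen. Of 20 tested aldehyde dehydrogenases, 0 were called on aspen and 1 was lower on pine, with 11 and 7 at an unadjusted p under 0.05. Of 56 alcohol dehydrogenases, 10 were higher and 6 lower on pine, and 7 higher and 7 lower on aspen. The zinc-binding model 29355 averaged 55.2 ± 41.8 RPKM on pine, 29.9 ± 13.4 on aspen, 424 ± 188 on Avicel and 685 ± 117 on glucose (SD, n = 3 each).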

How the data were processed

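RNA of 12 cultures, 3 per medium, was sequenced as single reads on Illumina lanes, and CASAVA 1.8.2 is named, with no role given, per the submitters' processing notes. Aligner, read counter, genome build and use of strand were not given in the sources used here. The values the authors deposited per library were taken as RPKM, since value times model span sums to nearly the same total in every library. The emPAI protein score, 1 value per medium, and the count of peptides were used as the authors deposited them, and the signal peptide probability is the deposited fraction from 0 to 1. All per-sample columns could be tied to a library by name.

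From these, log2(RPKM + 1) was fitted for the 4 media together in limma 3.58.1 (R 4.3.3) with a trended prior, for models whose mean reached 1 RPKM in some medium. All 6 comparisons between media and an F test over the 4 were made, with Benjamini-Hochberg adjustment over all 10184 models, and the fit was tested on simulated data. Tables and plots were made with Python 3.11.15, pandas 2.3.3 and matplotlib 3.10.9. The labels give separate cultures as replicates.

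Genes are named where called in any comparison (the 30 with the largest change), where among the 3 most abundant of their label group, or where found as protein. Any other member or model that is named was picked after its values were seen: for a call outside those 30, to complete a small label group, to list members at 0, as a related enzyme, or to describe a spread between cultures or a position. The families that define the members, and the lists, were chosen with earlier results of these data known. Alternatives covered the pseudocount, the filter, library scaling, the replicate block, the groups fitted, the fold threshold and each replicate left out in turn.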

Additional observations from a re-analysis of the deposited data

Results flagged for a closer look

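Among the members, 2 differed between the cultures on pine and those on aspen in the test of the difference itself. Aldo/keto reductase 22855 had 189.7, 184 and 159 RPKM in pine against 53.6, 65.4 and 57.9 in aspen, a log2 difference of 1.57 (limma, adjusted p = 0.0209), higher in 3 of 3 pine cultures than in any aspen culture. Aldo/keto reductase 117353 had 37.2, 27.0 and 41.1 RPKM in pine against 16.5, 14.7 and 18.3 in aspen, a log2 difference of 1.03 (limma, adjusted p = 0.0209), also with no overlap. Neither call held under every replicate left out. That of 117353 was also lost with a pseudocount of 5 and with only pine and aspen in the fit. With 3 cultures per medium, no outlier test was run on single genes.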

How the results depend on the processing

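Of 78 calls of members over the 6 comparisons, 41 held under all 21 alternatives and 37 were lost under at least 1. Not every alternative could lose a call. Dropping the fold threshold can only add calls, and a model that fell below the stricter filter was not counted as lost there. The calls kept were 13 of 24 in pine against glucose, 12 of 20 in aspen against glucose, 2 of 6 in Avicel against glucose, 9 of 13 in pine against Avicel, 5 of 13 in aspen against Avicel and 0 of 2 in pine against aspen. With no fold threshold the count was 33 in aspen against glucose (11 higher and 22 lower) and 24 in pine against Avicel, and with only pine and aspen in the fit it was 1 in pine against aspen. Leaving out each replicate in turn gave 18 to 24 calls in pine against glucose, 15 to 23 in aspen against glucose, 2 to 8 in Avicel against glucose, 11 to 18 in pine against Avicel, 8 to 14 in aspen against Avicel and 0 to 4 in pine against aspen, and 27 to 38 members in the F test. The Avicel against glucose count was 2 without glucose replicate 1 and 3 without Avicel replicate 1, and that of aspen against Avicel was 8 without Avicel replicate 3 or aspen replicate 2. Without pine replicate 3 the change of 166265 turned to -0.21 against glucose and -0.21 against aspen, and that of 99630 to -0.08 against aspen. Over the replicates left out these ranged up to 0.93, 1.0 and 1.42. The cause was not tested.

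With the replicate block the counts were 24 in pine against glucose, 20 in aspen against glucose, 7 in Avicel against glucose, 16 in pine against Avicel, 13 in aspen against Avicel and 3 in pine against aspen, and 39 members in the F test. In no comparison did all 3 same-numbered pairs correlate above 0.1, and not every culture correlated best with its own number. Single pairs did correlate in their deviations from the means of their media. Pine replicate 3 stood at r = 0.437 with aspen replicate 3 and 0.298 with Avicel replicate 3, but at -0.15 with glucose replicate 3. Whether cultures of the same number share more than that number was not tested. Low genes are limited by depth, where 3 reads in 1 kb equal 0.128 to 0.196 RPKM.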
